A study of Mus musculus with 10 samples.

Results

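Interferon-stimulated genes are genes that cells switch on after an interferon binds its receptor, and 39 of them, out of 54532 genes in the deposited tables, were followed through 10 mouse RNA-seq libraries. They were given as a list of gene symbols, and each of the 39 was found in the tables. The list had been drawn up because its genes differed strongly between libraries of 1 cell type, with low levels in the libraries titled p53KO2nEpiSCs, WT_ESCs and WT_haEpiLCs. The low levels in those 3 libraries chose the genes, so they are given as a description, and a fit that these libraries enter is named as one that supports nothing.

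The libraries came from cells of strain 129SV and fell into 8 groups. Epiblast stem cells (EpiSC), the cultured counterpart of the epiblast after implantation, gave 2 haploid libraries with the genotype label P53 - (haEpi1_1 and haEpi5_1), 2 wild-type diploid libraries (Epi_fema and Epi_male) and 1 diploid library labelled P53 - (p53KO2nEpiSCs). Epiblast stem cell like cells (EpiLC), which are made from embryonic stem cells in culture, gave 1 haploid library labelled P53 - (p53KOhaEpiLCs) and 1 wild-type haploid library (WT_haEpiLCs). Embryonic stem cells (ESC) gave 1 wild-type haploid (haESCs) and 1 wild-type diploid library (WT_ESCs), and mouse embryonic fibroblasts (MEF) gave 1 wild-type diploid library. Titles of 2 of these libraries write P53 - as p53KO, a knockout of the tumour suppressor gene Trp53, and the labels name no treatment of the cells. The titles Epi_fema and Epi_male read as a female and a male source, and sex was not a term in any fit. Whether libraries of a group came from separate cultures or lines is otherwise unstated, so the spread between them may be technical in part. Triplicates are mentioned in the series' design, and 10 libraries were analysed here.

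Interferons signal through paired receptors on the cell surface. The kinases JAK1 and TYK2, which sit on the receptor for type I interferon, phosphorylate STAT2 among other proteins, and STAT2 joins IRF9 in a complex that binds the interferon-stimulated response element (ISRE) in promoters. The induced proteins detect foreign RNA, stop translation, degrade RNA, trap virus particles at membranes and feed back on the pathway. Pluripotent cells are known for a weak response to interferon compared with fibroblasts, and fibroblasts are a common feeder layer for pluripotent cultures.

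Sequencing depth was similar, at 15862113 to 18814003 counts per library, and the 2 most alike libraries still differed with a chi-square of 38.89 per degree of freedom over genes, so no library was a copy of another. Pou5f1, a core pluripotency factor, ran from 378 to 1140 CPM (counts scaled to a common library size with the TMM method of edgeR) in the 9 pluripotent libraries and was at 0 in MEF, while the collagen gene Col1a1 reached 24600 CPM in MEF. Trp53 itself was lowest in p53KO2nEpiSCs, at 2.17 CPM. It stood at 50.5, 61.8 and 32.9 CPM in haEpi1_1, haEpi5_1 and p53KOhaEpiLCs, all labelled P53 -, but only at 28.5 and 36.9 CPM in haESCs and Epi_fema, labelled wild type. The other wild-type libraries held 129 to 375 CPM. The labels do not say which stretch was deleted, and since the level of Trp53 did not separate the labels, p53 status is written below as a label only.

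Promoters of the 39 genes were searched for 2 motifs to show what the genes share in sequence. The windows are RefSeq's (build GRCm38.p6), 300 bases each, from 250 before to 50 after the start of transcription, and 29 of the 39 genes had one, with 32 promoters in all. Oas2, Parp9, Usp18, Mx1, Parp14, Mx2, Zbp1, Rtp4, Dhx58 and Ifi27 had none in the table. The ISRE was searched on both strands as GAAA, any 2 bases and GAAA again, which reads TTTC, 2 bases and TTTC where it lies on the other strand. It was present in 16 of the 29 genes, that is in 50% of their promoters. Of 46 other interferon-induced genes listed for comparison, 35 had a window, and 39.1% of their promoters held a match. Over all 32851 promoters of this length the share was 3.44%. The gamma-activated sequence (GAS), a motif of other interferon-responsive promoters, searched as TTCNNNGAA (which reads the same on both strands), was present in 7 of the 29 genes and 21.9% of their promoters, against 13% and 8.3%. In Bst2 and Ifitm3 a match of one motif overlapped a match of the other, and in Eif2ak2, Gbp7 and Oas1a both were present apart.

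To show how the motif sits, 5 promoters are printed: 4 carry it in different arrangements and the last, that of Irf7, carries none in this window; capitals mark the ISRE matches. Stat2 has 1 match far upstream (plus strand, chr10:128270248-128270547), Isg15 has 3 overlapping matches (minus strand, chr4:156200769-156201068), Ddx58 has 1 just after the start (minus strand, chr4:40239776-40240075) and Ifit1 has 2 (plus strand, chr19:34640639-34640938). Irf7 lies on the minus strand at chr7:141266375-141266674. All are written 5′ to 3′ along the gene.
Stat2: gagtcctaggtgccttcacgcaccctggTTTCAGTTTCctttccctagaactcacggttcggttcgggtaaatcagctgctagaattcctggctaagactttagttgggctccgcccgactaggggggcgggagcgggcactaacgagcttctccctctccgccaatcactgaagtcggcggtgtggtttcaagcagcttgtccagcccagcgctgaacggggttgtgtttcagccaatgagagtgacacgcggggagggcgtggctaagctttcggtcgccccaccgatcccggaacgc
Isg15: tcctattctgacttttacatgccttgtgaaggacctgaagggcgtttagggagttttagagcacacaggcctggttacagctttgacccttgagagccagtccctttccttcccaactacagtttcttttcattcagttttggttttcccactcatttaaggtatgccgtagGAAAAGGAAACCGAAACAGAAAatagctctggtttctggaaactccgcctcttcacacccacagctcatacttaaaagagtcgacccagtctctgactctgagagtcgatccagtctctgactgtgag
Ddx58: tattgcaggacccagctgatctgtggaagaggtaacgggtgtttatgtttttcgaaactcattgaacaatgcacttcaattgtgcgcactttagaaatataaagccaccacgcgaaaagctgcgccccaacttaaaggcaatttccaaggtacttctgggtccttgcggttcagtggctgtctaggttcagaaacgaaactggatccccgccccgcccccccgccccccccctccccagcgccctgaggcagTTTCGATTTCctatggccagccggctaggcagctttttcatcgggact
Ifit1: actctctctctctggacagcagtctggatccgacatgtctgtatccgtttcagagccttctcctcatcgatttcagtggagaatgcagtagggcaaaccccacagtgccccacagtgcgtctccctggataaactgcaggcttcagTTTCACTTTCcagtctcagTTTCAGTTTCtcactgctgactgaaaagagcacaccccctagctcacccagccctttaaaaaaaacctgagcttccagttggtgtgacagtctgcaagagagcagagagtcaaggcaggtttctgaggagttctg
Irf7: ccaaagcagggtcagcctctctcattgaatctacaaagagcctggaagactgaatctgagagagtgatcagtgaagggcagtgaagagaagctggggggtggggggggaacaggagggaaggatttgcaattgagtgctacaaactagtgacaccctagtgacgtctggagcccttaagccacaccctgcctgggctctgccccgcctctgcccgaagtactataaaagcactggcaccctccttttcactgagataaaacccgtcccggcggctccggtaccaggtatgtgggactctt

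In all, the 16 genes held 25 ISRE matches, and 8 genes held more than 1. Of the 25 matches, 20 lay wholly before the start of transcription, 18 of them within 160 bases, and 5 lay after it, in Ifih1, Ddx58, Eif2ak2 and Ifitm3. One form, GAAACTGAAA, was shared by 8 genes: Bst2, Gbp3, Gbp7, Ifit1, Ifit3, Ifit3b, Oas1a and Stat2. GAAAGTGAAA was shared by 4, namely Gbp2, Ifit1, Ifit3 and Ifit3b. A match is a string of letters in a window and was not tested as a binding site. Genes with a match did not differ from those without in 1 direction in ratios of single libraries. The second library of each pair below helped to choose the list, so these medians describe it and decide nothing about the motif. The median log2 ratio of p53KOhaEpiLCs to WT_haEpiLCs was 3.89 for the 16 genes with a match and 3.57 for the 13 without, and that of haESCs to WT_ESCs was 2.46 and 1.23. The order was the other way round for haEpi1_1 against p53KO2nEpiSCs, with 2.59 and 3.26, and for haEpi5_1 against p53KO2nEpiSCs, with 3.33 and 4.84.

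**Figure D1:**
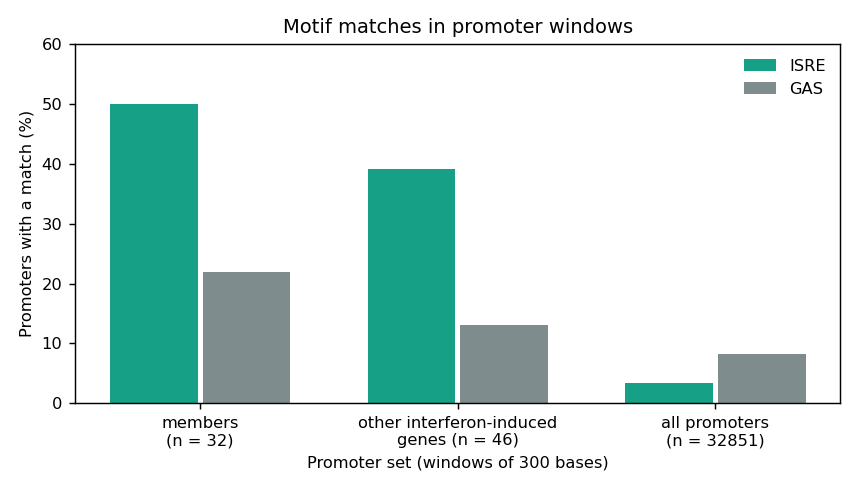
Share of promoters (percent, vertical axis) with an ISRE or gamma-activated sequence (GAS) match in 300-base windows, for the listed genes, other interferon-induced genes and all promoters. The ISRE bar stands at 50% for the listed genes and 3.44% for all promoters, whereas the GAS bars are at 21.9% and 8.3%.

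Across libraries, the levels of the 39 genes covered a wide range, and all 39 passed the low-count filter of every edgeR test below. Their median level was 48.6 CPM in haEpi5_1, 43.7 CPM in p53KOhaEpiLCs and 38.4 CPM in MEF, the 3 highest libraries. It was 17.5, 14.2 and 7.52 CPM in haEpi1_1, Epi_fema and Epi_male, 5.69 CPM in haESCs, and 1.68, 1.36 and 0.932 CPM in WT_haEpiLCs, p53KO2nEpiSCs and WT_ESCs. Per length the order was almost the same, with median FPKM (fragments per kilobase of transcript, scaled for depth) of 12 in haEpi5_1, 11.7 in p53KOhaEpiLCs, 12.2 in MEF and 0.239 in WT_ESCs. Every gene had at least 1 count in haEpi1_1, haEpi5_1, Epi_fema, p53KOhaEpiLCs, haESCs and MEF, but 1 gene was at 0 in Epi_male, 3 in p53KO2nEpiSCs, 4 in WT_haEpiLCs and 10 in WT_ESCs. A count of 0 allows up to 3 counts, or 0.15 to 0.194 CPM here, and covers counting error only. In bulk RNA, fewer cells of an expressing type and less RNA per cell cannot be told apart.

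**Figure D2:**
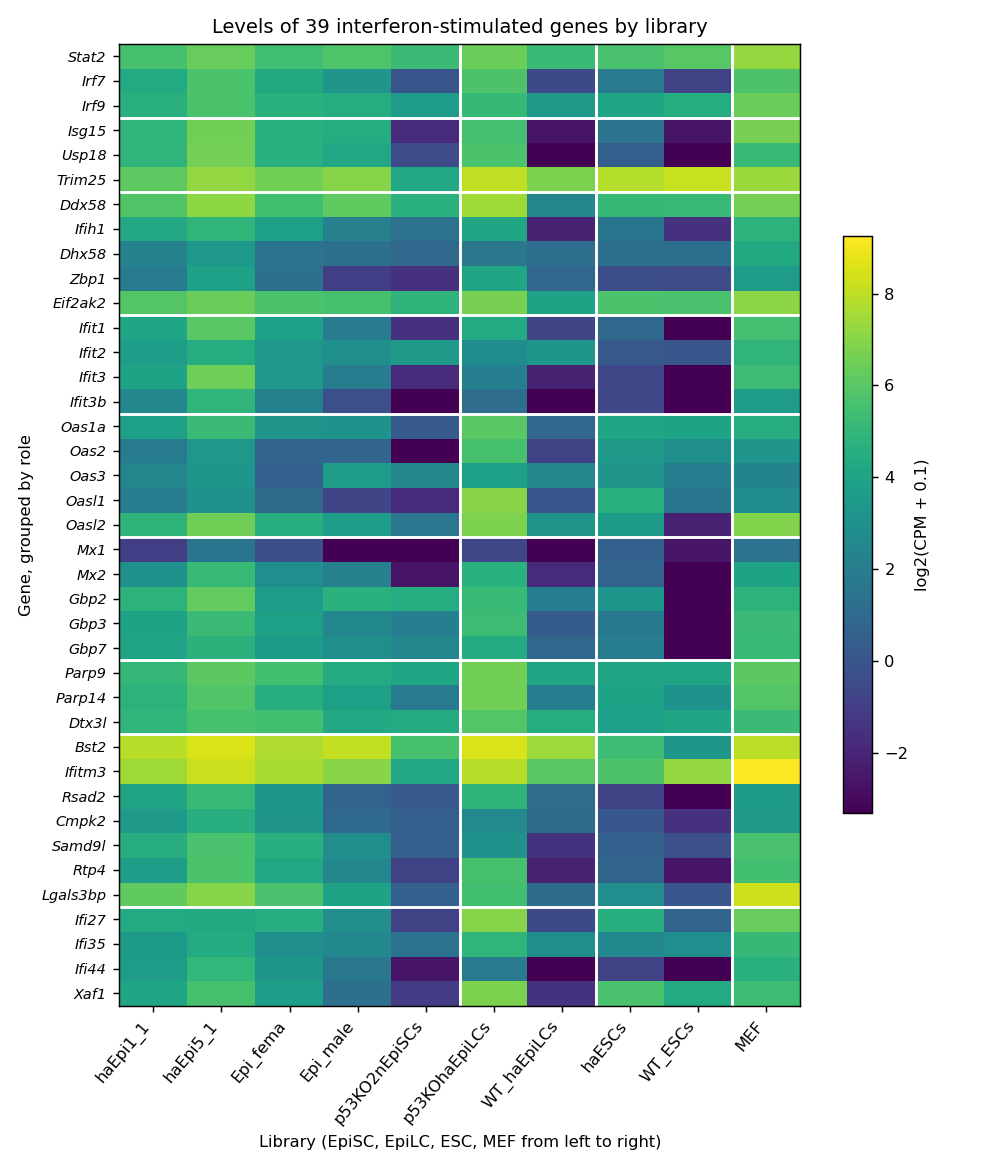
Heat map of log2(CPM + 0.1) for the 39 genes (rows, grouped by role) in the 10 libraries (columns, by cell type; white lines part roles and cell types). The columns p53KO2nEpiSCs, WT_haEpiLCs and WT_ESCs are darker in most rows than their neighbours of the same cell type, while Stat2, Trim25 and Eif2ak2 stay bright across the columns.

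The transcription factors of the pathway showed both patterns. Stat2, which carries the transactivation domain of the ISRE-binding complex, ran from 36.4 CPM in WT_haEpiLCs and 38.3 in p53KO2nEpiSCs to 86.9 in p53KOhaEpiLCs. Its other values were 47.8, 81.2, 41.5 and 54.6 CPM in haEpi1_1, haEpi5_1, Epi_fema and Epi_male, 49 in haESCs, 62.2 in WT_ESCs and 152 in MEF. The 9 pluripotent libraries thus spanned only 2.39-fold, and WT_ESCs, low for most of the list, was above haESCs. Irf9, the DNA-binding partner of the complex, was at 25.1, 50.8, 25.8, 22.1 and 11.7 CPM in haEpi1_1, haEpi5_1, Epi_fema, Epi_male and p53KO2nEpiSCs, 33.7 and 10.5 in p53KOhaEpiLCs and WT_haEpiLCs, 17.4 and 21.6 in haESCs and WT_ESCs, and 86.4 in MEF. Irf7, which is itself induced and then amplifies interferon production, spanned 122-fold, from 0.435 CPM in WT_ESCs to 53 in p53KOhaEpiLCs.

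Isg15 encodes a ubiquitin-like protein that is attached to other proteins, and Usp18 the protease that removes it and restrains the receptor. Isg15 stood at 30.6, 94.7, 26.4 and 21.8 CPM in haEpi1_1, haEpi5_1, Epi_fema and Epi_male, 44.2 in p53KOhaEpiLCs, 2.65 in haESCs and 101 in MEF. In p53KO2nEpiSCs, WT_haEpiLCs and WT_ESCs it had 3, 1 and 1 counts, or 0.186, 0.0645 and 0.0621 CPM, the last with a 95% Poisson interval of 0.00157 to 0.346. The 3 libraries did not overlap with the rest, and haESCs lay between them and the other libraries. Usp18 was alike, with 29.8, 99.3, 25.2 and 18.6 CPM in the 4 EpiSC libraries other than p53KO2nEpiSCs (0.62), 50.6 in p53KOhaEpiLCs, 1.3 in haESCs, 36.1 in MEF, and no count in WT_haEpiLCs and WT_ESCs. Trim25, a ubiquitin ligase that acts on the RNA sensor RIG-I, did not: it was highest in WT_ESCs (292 CPM), at 233 in haESCs, 264 and 110 in p53KOhaEpiLCs and WT_haEpiLCs, 69.1, 146, 95.7 and 126 in haEpi1_1, haEpi5_1, Epi_fema and Epi_male, 166 in MEF, and only 17.7 in p53KO2nEpiSCs.

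Among the sensors of foreign nucleic acid, Ddx58, which encodes RIG-I, was at 56.1, 138, 43.7, 73.4 and 26 CPM in haEpi1_1, haEpi5_1, Epi_fema, Epi_male and p53KO2nEpiSCs. The EpiLC libraries differed more, with 174 CPM in p53KOhaEpiLCs against 5.49 in WT_haEpiLCs, whereas haESCs (33.8) and WT_ESCs (35) were alike and MEF had 98.4. Eif2ak2 encodes PKR, the kinase that stops translation on double-stranded RNA. It ran from 15.1 CPM in WT_haEpiLCs and 28.8 in p53KO2nEpiSCs through 47.5, 48.9, 51.3, 51.5 and 59.3 in Epi_male, WT_ESCs, Epi_fema, haESCs and haEpi1_1 to 85.3, 103 and 132 in haEpi5_1, p53KOhaEpiLCs and MEF. Ifih1, the RNA sensor MDA5, spanned 234-fold over the pluripotent libraries. Zbp1, a sensor of left-handed nucleic acid helices, spanned 66.2-fold, and Dhx58, which modulates RIG-I and MDA5, only 5.8-fold.

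The IFIT genes, whose products bind viral RNA and block its translation, lie side by side on chromosome 19, from 34550694 to 34650009 (mm10). Ifit1 was at 17.5, 64.5, 14.6 and 3.51 CPM in haEpi1_1, haEpi5_1, Epi_fema and Epi_male and 0.248 in p53KO2nEpiSCs, at 20.8 and 0.516 in p53KOhaEpiLCs and WT_haEpiLCs, at 1.75 in haESCs with no count in WT_ESCs, and at 45.2 in MEF. Ifit3 had 15.3, 89.8, 10.2, 3.79 and 0.186 CPM in the EpiSC libraries in that order, 4.22 and 0.129 in the EpiLC libraries, 0.549 and 0 in the ESC libraries and 39.4 in MEF. For both, haEpi5_1 was the highest of the 10 libraries. Ifit3 and Ifit3b cannot be fully separated: 51.2% of the 50-base stretches of Ifit3 transcripts also occur in Ifit3b. Ifit2 departed from its neighbours. It was at 10.9 CPM in p53KO2nEpiSCs, among the 7.64, 10.3 and 12.6 CPM of Epi_male, Epi_fema and haEpi1_1, and at 9.55 CPM in WT_haEpiLCs, above the 6.8 CPM of p53KOhaEpiLCs. Its lowest values were 1.05 CPM in haESCs and 0.932 in WT_ESCs, and its highest 22 in haEpi5_1 and 29.3 in MEF.

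The OAS family is known for making the messenger that activates the antiviral ribonuclease RNase L, though not every member does so. It was led by the EpiLC library labelled P53 -, not by the EpiSC libraries. Oasl2 was at 28.8, 92.6, 24.1, 12.8 and 2.91 CPM in haEpi1_1, haEpi5_1, Epi_fema, Epi_male and p53KO2nEpiSCs, 109 and 9.03 in p53KOhaEpiLCs and WT_haEpiLCs, 11.6 and 0.124 in haESCs and WT_ESCs, and 116 in MEF. Oas1a was at 14.1, 38.4, 9.03, 8.71 and 1.12 CPM in the EpiSC libraries, 66.2 and 1.68 in the EpiLC libraries, 16.5 and 15.5 in the ESC libraries and 22.7 in MEF. Its reads are uncertain, since 57.6% of its 50-base stretches also occur in Oas1g. Oasl1 reached 129 CPM in p53KOhaEpiLCs and 25 in haESCs, above the 8.64 CPM of haEpi5_1 and the 6.82 CPM of MEF, and stood at 0.186 to 3.82 CPM in the 4 other EpiSC libraries. Oas2 showed the same lead, with 47.6 CPM in p53KOhaEpiLCs and 9.18 in MEF. Oas3 varied least in the family, between 1.42 CPM in Epi_fema and 13.7 in p53KOhaEpiLCs, and did not separate the low libraries.

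Guanylate-binding proteins and Mx proteins are GTPases that attack pathogen-containing compartments and viral particles. Gbp2 was at 28, 73.9, 12.4, 25.9 and 21.6 CPM in haEpi1_1, haEpi5_1, Epi_fema, Epi_male and p53KO2nEpiSCs, 36.8 and 4 in p53KOhaEpiLCs and WT_haEpiLCs, 9.64 in haESCs, 0 in WT_ESCs and 28 in MEF. p53KO2nEpiSCs was therefore not its lowest EpiSC library; Epi_fema was. Gbp3 gave 15.8, 37.4, 13.8, 5.77 and 4.22 CPM in the EpiSC libraries, 39 and 1.16 in the EpiLC libraries, 3.25 and 0 in the ESC libraries and 38.4 in MEF. Gbp2, Gbp3 and Gbp7 lie together on chromosome 3, and none of the 3 had a count in WT_ESCs. Mx1 was scarce everywhere, at most 2.82 CPM (haEpi5_1). Mx2, which the annotation calls a polymorphic pseudogene, ran from 0 in WT_ESCs to 36.3 CPM in haEpi5_1.

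Parp9 and Parp14 encode ADP-ribosyltransferases and Dtx3l the ubiquitin ligase that pairs with PARP9. Parp9 was at 32.7, 67.2, 43.5, 21 and 17.1 CPM in the EpiSC libraries (same order as above), 94.4 and 15.9 in p53KOhaEpiLCs and WT_haEpiLCs, 16 and 16.3 in haESCs and WT_ESCs, and 67.8 in MEF. Dtx3l gave 30.7, 48.6, 43.3, 18.8 and 21.3 CPM in EpiSC, 58.1 and 21.8 in EpiLC, 13.4 and 16.5 in ESC and 38.1 in MEF. Both kept at least 13.4 CPM in every library, and for both Epi_fema was well above Epi_male. These genes overlap on opposite strands, and without the strand setting of the counting their reads cannot be told apart where they overlap. Parp14 spanned 27.4-fold in the pluripotent libraries, against 5.94-fold for Parp9 and 4.34-fold for Dtx3l.

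Per length, the most abundant transcripts of the list were Bst2, which encodes tetherin, the membrane anchor that holds budding viruses, and Ifitm3, a blocker of virus entry. They took the highest and second-highest FPKM of the 39 genes in every library but WT_ESCs, where Trim25 was second to Ifitm3. Bst2 was at 240, 365, 214, 276 and 48.1 CPM in the EpiSC libraries, 370 and 169 in the EpiLC libraries, 40.6 and 9.88 in haESCs and WT_ESCs, and 249 in MEF. So the low EpiLC library still held more Bst2 than either ESC library. Ifitm3 was at 175, 300, 202, 129 and 18.5 CPM in EpiSC, 241 and 65.6 in EpiLC, 52.3 in haESCs, 151 in WT_ESCs and 607 in MEF; here the diploid ESC library was the higher one. The other 5 of this class were wider in range. Rsad2 (viperin, which makes a chain-terminating nucleotide) and its neighbour Cmpk2 (a nucleotide kinase) peaked in haEpi5_1 at 34.9 and 23.7 CPM, as did Samd9l, Rtp4 and Lgals3bp at 50.4, 51.7 and 126 CPM among the pluripotent libraries. In WT_ESCs these 5 genes were between 0 and 0.932 CPM.

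Of the small interferon-inducible proteins, Xaf1 (a partner of the apoptosis inhibitor XIAP) was at 17, 48.6, 13.2, 2.43 and 0.372 CPM in EpiSC, 107 and 0.258 in EpiLC, 49 and 20.8 in haESCs and WT_ESCs, and 40.5 in MEF. Ifi27, a mitochondrial protein, had 20.2, 20.1, 23, 7.35 and 0.434 CPM in EpiSC, 124 and 0.581 in EpiLC, 23.5 and 1.62 in ESC and 79.6 in MEF. p53KOhaEpiLCs was above MEF for both. For Ifi27, haEpi5_1 was not above haEpi1_1 or Epi_fema. Ifi44 was between 0 and 31.7 CPM and Ifi35 between 2.6 and 34.4 CPM.

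Counted over the list, the 3 libraries that chose it all lay below the other 6 pluripotent libraries for 16 of the 39 genes, against 1.81% of the 21104 genes that passed the low-count filter over all libraries. Since this count restates how the list was made, nothing is read from it. The 23 exceptions were Stat2, Irf9, Trim25, Ddx58, Zbp1, Eif2ak2, Ifit2, Oas1a, Oas2, Oas3, Oasl1, Mx1, Gbp2, Gbp3, Gbp7, Parp9, Dtx3l, Bst2, Ifitm3, Rsad2, Cmpk2, Ifi35 and Xaf1. The EpiSC libraries that were not named as low also took a common order. The list was chosen for spread within a cell type, to which high libraries add, so this order is a description too. haEpi5_1 was the highest of the 5 EpiSC libraries for 37 genes (22.1% of all genes), all but Oas3 and Ifi27, and haEpi1_1 came second for 27 (22.8% of all genes). p53KO2nEpiSCs, which did choose the list, was lowest for 34 (19.3%), all but Ifit2, Oas3, Mx1, Gbp2 and Dtx3l. Over the 9 pluripotent libraries the top place was split: haEpi5_1 held it for 20 genes (11.6% of all genes), p53KOhaEpiLCs for 18 (9.78%) and WT_ESCs for Trim25. The IFIT genes were all highest in haEpi5_1 and the OAS genes all highest in p53KOhaEpiLCs.

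Whether haploid EpiSC labelled P53 - differ from wild-type diploid EpiSC is the 1 comparison with 2 libraries on each side, and p53 label and ploidy change together in it. By edgeR's quasi-likelihood F test no gene of the list passed an adjusted p of 0.05, and neither did any of the 18153 genes tested (0.0% called). The list was chosen for spread within a cell type, and p53KO2nEpiSCs, which chose it, enters this fit as a group of its own. The counts that follow therefore describe the list and support nothing. By edgeR's test 21 of the 39 had an unadjusted p under 0.05, against 3.53% of all genes. That count was 27 with DESeq2 (2.73% of all genes) and 6 with limma on log2(FPKM + 1) (3.46%). By adjusted p, DESeq2 called 1 gene of the list (0.129% of all genes with an adjusted p) and limma on log2(FPKM + 1) none. The log2 differences were positive for 38 of the 39 genes, with a median of 1.42 against -0.01 over all genes, and Trim25 alone was negative, at -0.04. Both haploid libraries lay above both wild-type libraries for 26 genes, against 15.8% of all genes, and below both for none, against 15.3%.

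The size of this difference, and with it the unadjusted count above, rested on 1 library. Without haEpi5_1 the median log2 difference was 0.56, with 34 genes positive, and without haEpi1_1 it was 1.95. Ifit3, the gene that DESeq2 called (adjusted p = 0.0341), had a log2 difference of 2.91 ± 0.88 (SE) and an adjusted p of 0.976 by edgeR; its levels of 15.3 and 89.8 CPM in the haploid libraries exceeded the 10.2 and 3.79 CPM of the wild-type ones. By role, the IFIT family had the highest median difference, 2.49, then the OAS family with 1.72, and the ADP-ribosyltransferases the lowest with 0.63. Leaving out either wild-type library leaves 1 on that side, so calls from those fits are not given. Fibroblast markers moved the same way in this contrast: 19 of 20 were positive, with a median of 1.14, and their summed level was 2500 and 3260 CPM in haEpi1_1 and haEpi5_1 against 1780 and 1210 CPM in Epi_fema and Epi_male. Leukocyte and macrophage markers summed to 28.9 and 113 CPM against 20.1 and 35.8 CPM. Of their 12 genes C1qb was at 0 in Epi_fema, and none was at 0 in haEpi1_1, haEpi5_1 or Epi_male. Their part in the difference was not tested.

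**Figure D3:**
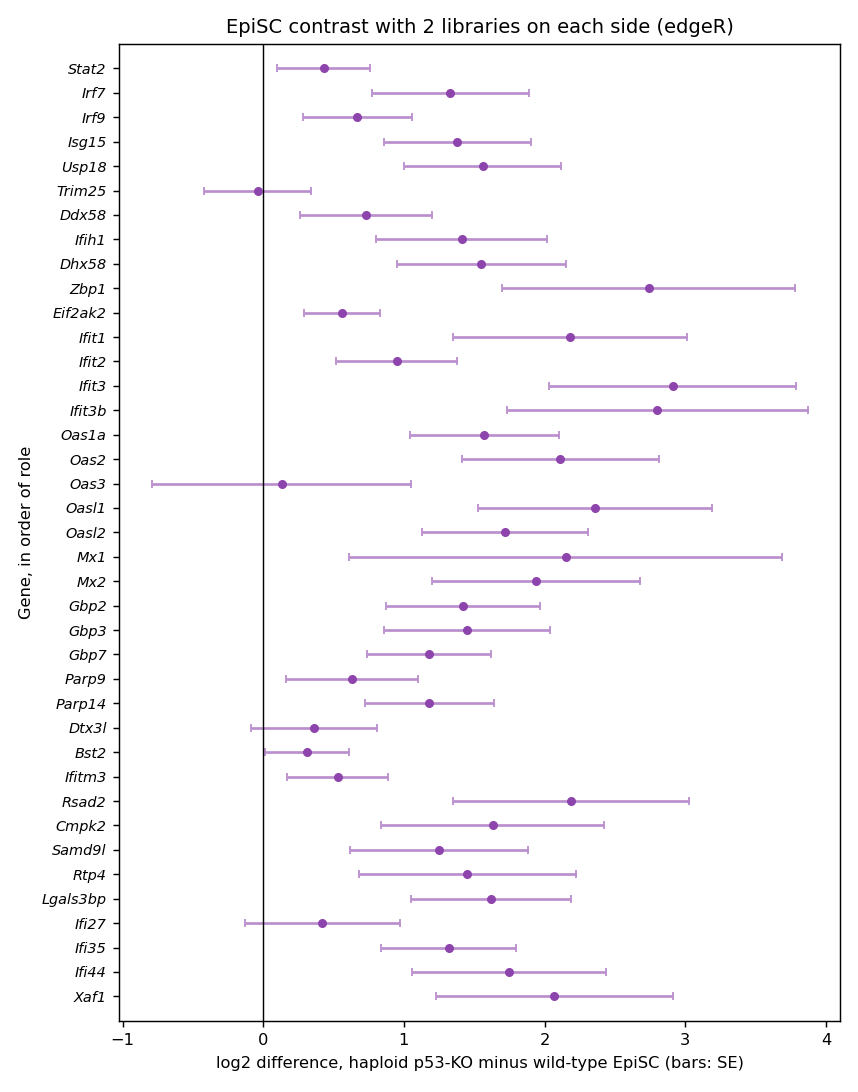
Log2 difference of each of the 39 genes between haploid EpiSC labelled P53 - and wild-type diploid EpiSC (horizontal axis, edgeR estimate, bars are standard errors, 2 libraries on each side). Points lie to the right of 0 for 38 genes, with Trim25 at -0.04 and Ifit3 at 2.91, and no gene passed the adjusted threshold.

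The other comparisons of genotype or ploidy within a cell type have 1 library per side, so their ratios have no replicate check, and the low libraries in them chose the list. In EpiLC, p53KOhaEpiLCs was at least 2-fold above WT_haEpiLCs for 37 of the 39 genes (17.4% of all genes), all but Dhx58 and Ifit2, and at least 2-fold below for none (9.74% of all genes). The median log2 ratio was 4.08, or 3.7 when the 4 genes at 0 in WT_haEpiLCs were set to their bound, against 0.04 for all genes. Xaf1 was 416-fold higher (95% counting interval 162 to 1530), Ifi27 213-fold (112 to 467) and Oasl1 143-fold (84.9 to 261). Usp18, with no count in WT_haEpiLCs, was 261-fold higher with that library set to the bound of 3 counts. Such a value leaves out the counting error of the higher library. Isg15, with 1 count in WT_haEpiLCs, had a ratio of 685 with an interval of 123 to 27100. Stat2 and Bst2, at the other end, were 2.39-fold (2.16 to 2.64) and 2.18-fold (2.08 to 2.29) higher.

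In ESC, haESCs was at least 2-fold above WT_ESCs for 23 genes (20.3% of all genes) and at least 2-fold below for 1, Ifitm3 (10.6% of all genes). The median log2 ratio was 2.03, or 1.27 with the 10 genes at 0 in WT_ESCs at their bound. The difference was uneven. Gbp2 was 51.7-fold higher in haESCs with WT_ESCs set to the bound of 3 counts, and Oasl1 8.75-fold (6.46 to 12.1). The ratio of Ddx58 was 0.965 (0.862 to 1.08), that of Stat2 0.788 (0.72 to 0.861) and that of Ifitm3 0.346 (0.321 to 0.372). In EpiSC, haEpi1_1 was at least 2-fold above p53KO2nEpiSCs for 33 genes (13.7% of all genes) and haEpi5_1 for 38 (11.5%), and at least 2-fold below for none (6.26% and 10.9%). The medians were 3.23 and 4.62, or 3.23 and 4.06 with the 3 genes at 0 at their bound. All 3 libraries carry the label P53 -, so the p53 label does not differ here while ploidy does. Both ratios share the p53KO2nEpiSCs library.

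**Figure D4:**
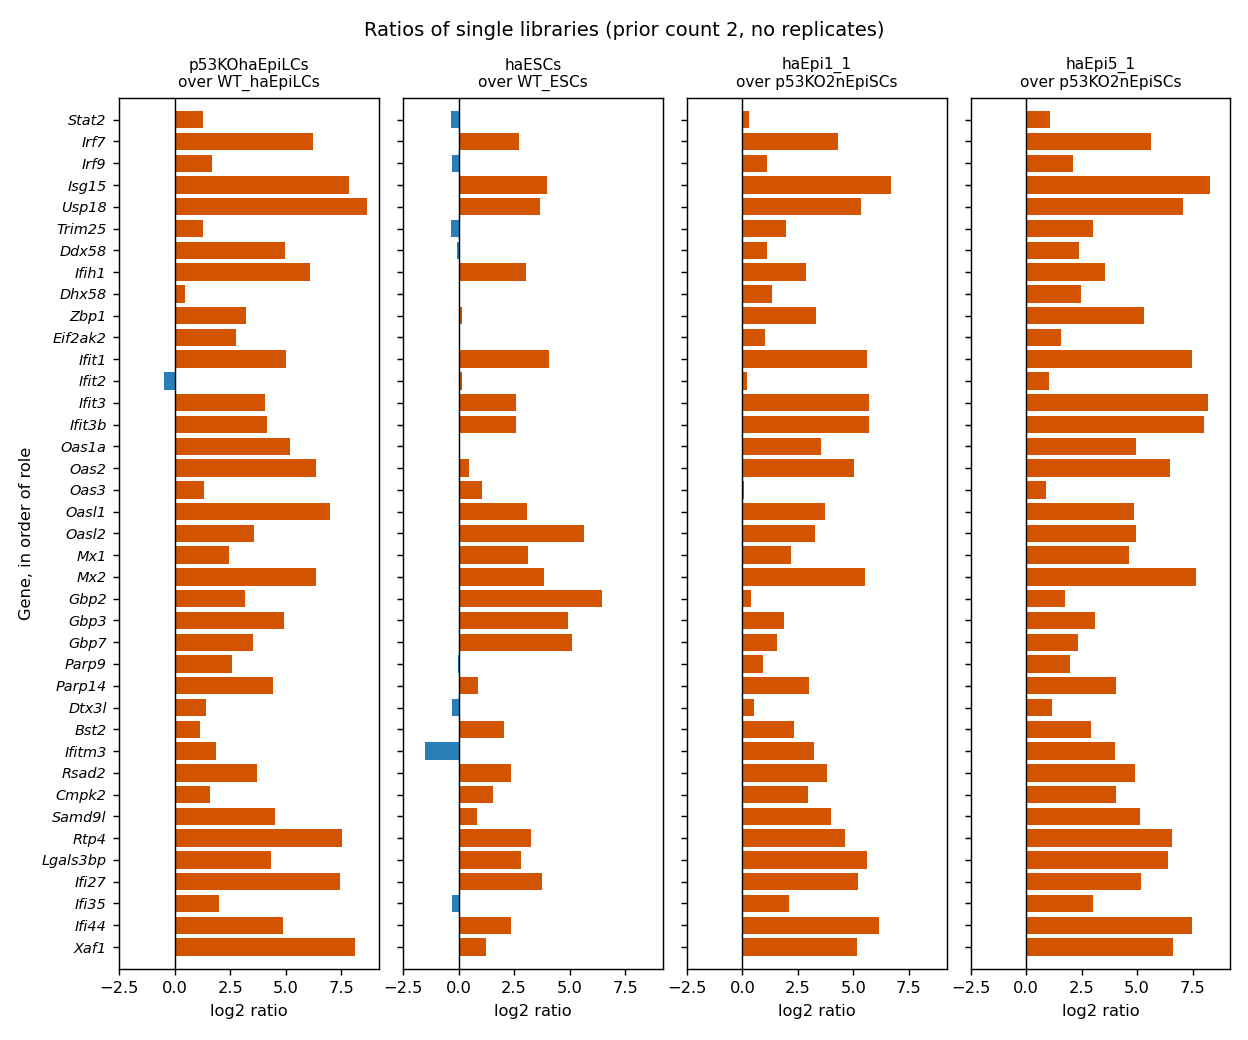
Log2 ratios of TMM-normalised levels (horizontal axes, prior count 2) between single libraries for the 39 genes (rows, in order of role) in 4 pairs. Bars to the right are higher in the first library named: 38 genes in EpiLC, 31 in ESC and all 39 in each EpiSC pair.

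Set against fibroblasts, the levels of the list did not follow those of fibroblast genes in every library. Each gene was expressed as a percent of its own MEF level, and 20 fibroblast markers (collagens, Postn, Lum, Dcn and other matrix genes) were treated alike. In p53KOhaEpiLCs the 39 genes had a median of 99.7% of MEF, between 10.7% for Ifit3 and 1890% for Oasl1, while the fibroblast markers had a median of 0.655% and a highest value of 3.06% (Fbln2). All 39 genes were thus above the highest fibroblast marker there, which held in no other library. In haEpi1_1, haEpi5_1, Epi_fema, Epi_male and p53KO2nEpiSCs that number was 23, 28, 33, 26 and 14. Twist2 reached 87.5% of MEF in haEpi5_1 and Fbln2 40.7% in haEpi1_1. In haEpi5_1 the medians were 114% and 6.27%, in haEpi1_1 42.8% and 4.56%, in Epi_fema 35.9% and 3.1%, and in Epi_male 17.9% and 1.45%. In p53KO2nEpiSCs the list was at 4.92% while the fibroblast markers had a median of 1.89%. Of the 20 markers 12 were lower there than in Epi_male and 8 higher.

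The ESC and EpiLC libraries differed in fibroblast markers too. The medians were 10.2% for the list and 2.69% for the markers in haESCs, against 2.5% and 0.00592% in WT_ESCs and 7.23% and 0.0374% in WT_haEpiLCs. Summed over the 20 markers the levels were 1780 CPM in haESCs, 61.8 in WT_ESCs, 265 in p53KOhaEpiLCs, 108 in WT_haEpiLCs, 1710 in p53KO2nEpiSCs and 85000 in MEF. Col3a1, Postn and Fap had no count in WT_haEpiLCs or WT_ESCs. Leukocyte and macrophage markers summed to 7.3 CPM in p53KOhaEpiLCs, 2.52 in WT_haEpiLCs, 3.94 in haESCs, 0.808 in WT_ESCs, 15.7 in p53KO2nEpiSCs and 1310 in MEF, so that MEF itself carried such transcripts, with Lyz2 at 885 CPM. In haEpi5_1 Lyz2 was at 67.3 CPM.

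**Figure D5:**
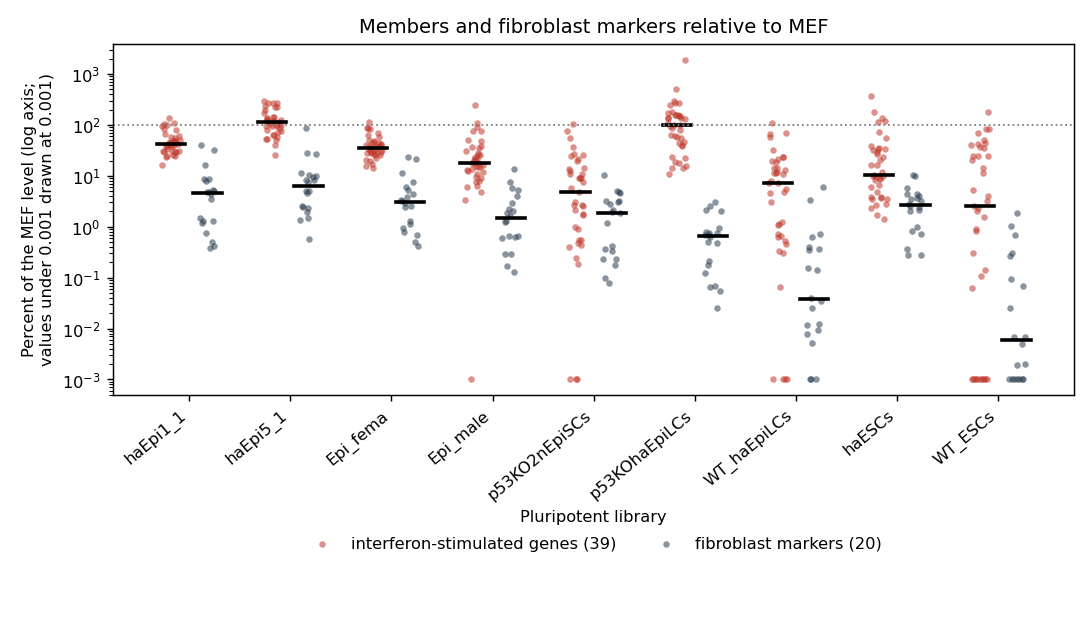
Level of each of the 39 genes (red) and of 20 fibroblast markers (dark) as percent of its level in MEF (vertical axis, log scale, values under 0.001 drawn at 0.001) in the 9 pluripotent libraries; black lines are medians and the dotted line is 100%. In p53KOhaEpiLCs the red points have a median of 99.7% and the dark ones 0.655%, whereas in p53KO2nEpiSCs the medians are 4.92% and 1.89%.

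A slope of each gene against the mean log2 level of the fibroblast markers, fitted over the 9 pluripotent libraries with cell type as a term, describes the same relation. All 39 slopes were positive, with a median of 0.94 log2 units per log2 unit against 0.01 over all genes. In all, 10 genes passed an adjusted p of 0.05 by edgeR (background 1.44% of 18659 genes, 1.3% rising and 0.139% falling): Ifit1, Ifit3, Ifit3b, Oasl2, Mx2, Gbp2, Gbp3, Gbp7, Rsad2 and Ifi44. The steepest of these was Ifit3b at 2.99 ± 0.40 (SE) and the least steep Gbp2 at 1.10 ± 0.21. Because the libraries that chose the list enter the fit, these calls are not read as support, and limma on log2(FPKM + 1) made none of them. The count was 5 without haEpi5_1, against 0.748% of all genes. Leaving out haESCs leaves 1 ESC library, and the median slope was then 1.75.

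For the p53 label over the 9 pluripotent libraries, with cell type and ploidy as terms, the list took no common direction; the libraries that chose it enter this fit too. By edgeR none of the 39 genes passed the test (background 0.0% of 18659 genes), none had an unadjusted p under 0.05 (3.07% of all genes did), and DESeq2 and limma called none either. The median log2 difference of libraries labelled P53 - from wild type was 0.09, with 23 genes positive, between -1.95 ± 3.76 (SE) for Isg15 and 2.04 ± 2.45 for Oas2. It hung on single libraries: the median was -1.72 without p53KOhaEpiLCs, -1.67 without WT_haEpiLCs and 2.49 without p53KO2nEpiSCs. In the same fit 14 of 14 p53 target genes were lower in libraries labelled P53 -, with a median of -1.18 and no call. Cdkn1a, the cell cycle inhibitor most closely tied to p53, was at 4.34 and 12 CPM in p53KO2nEpiSCs and p53KOhaEpiLCs, which stand at opposite ends for the list, and at 71.3 and 104 CPM in haEpi1_1 and haEpi5_1, against 70.8 to 215 CPM in the wild-type libraries.

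Ploidy in that fit gave a median log2 difference of 2, haploid above diploid, with 37 of 39 genes positive. Again edgeR called none (background 0.0%), with 1 unadjusted p under 0.05 (4.72% of all genes), and DESeq2 and limma called none. Ifit3 had the largest difference, 4.32 ± 2.66 (SE, edgeR adjusted p = 0.939), and Stat2 none, at 0.00 ± 0.42. The median turned to -0.38 without p53KO2nEpiSCs and to -0.41 once the fibroblast level was added to the fit. Without that term, the fibroblast markers themselves were higher in haploid libraries for 20 of 20 genes, with a median of 3.17. Fibroblast level and ploidy thus went together, and the fit with both terms cannot part them. The markers' part in the haploid difference was not tested.

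Between cell types, 2 genes of the list rose in EpiSC over ESC, against 16.9% of all 21104 genes called in either direction (6.86% up, 10.1% down). Ifit2 had a log2 difference of 3.65 ± 0.53 (SE, edgeR adjusted p = 0.00232) and Bst2 3.17 ± 0.82 (adjusted p = 0.0275), and 33 of 39 genes were positive with a median of 2.64. Without haEpi5_1 the count was 1, against 12.7% of all genes, and the median was 1.55. Without haESCs, which leaves 1 ESC library, the median was 3.7. For EpiLC against ESC edgeR called none (0.426% of all genes, 0.317% up and 0.109% down; 4 with an unadjusted p under 0.05, against 14.4% of all genes; DESeq2 3, against 5.4% of all genes, limma on log2(FPKM + 1) none), and the median of 2.23 turned to -1.15 without p53KOhaEpiLCs. For EpiSC against EpiLC none was called either (9.65% of all genes, 3.77% up and 5.88% down; 1 with an unadjusted p under 0.05, against 27.7% of all genes; DESeq2 1, against 17.6% of all genes, limma none), and the median of -0.25 turned to 3 without p53KOhaEpiLCs. All these contrasts share libraries, and those that chose the list enter them, so they describe the list and support nothing.

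MEF stood above the mean of the pluripotent cell types for 37 of 39 genes, with a median log2 difference of 1.94 against -0.2 over all genes, assuming that the single MEF library varied like the others; this fit too holds the libraries that chose the list. By edgeR 5 genes rose, against 26.1% of all genes called (16.1% up, 10% down): Stat2 by 1.44 ± 0.42 (SE, adjusted p = 0.0306), Irf9 by 1.94 ± 0.58 (0.0352), Dhx58 by 2.72 ± 0.67 (0.0152), Ifit2 by 2.65 ± 0.44 (0.00231) and Lgals3bp by 4.21 ± 1.30 (0.0383). Of these, Stat2 had the smallest spread of the list among the pluripotent libraries. The 5 calls among 39 genes are no larger a share than the 16.1% of all genes called up, so no role is read from them. With 1 library left out at a time, the median ran from 1.7 without WT_haEpiLCs to 2.8 without p53KOhaEpiLCs. MEF was the highest of the 10 libraries for 12 genes, against 24.2% of all genes.

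Upstream of the list, interferon genes themselves were close to absent. Of 21 interferon ligand genes none passed the low-count filter. Ifnb1, the interferon that most cells make first, had 7 counts in haEpi5_1, or 0.403 CPM (95% Poisson interval 0.162 to 0.831), 2 in p53KOhaEpiLCs (0.126 CPM) and 1 in haEpi1_1, and none in the 7 other libraries. So the 3 libraries with any Ifnb1 count were among the 4 highest for the list, and the depth does not allow more than that. The remaining ligands together reached at most 0.549 CPM summed over all 21 in any library, that of haESCs, where Ifnk made up 0.499.

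The receptors and kinases were present in every library. Ifnar1 and Ifnar2, the chains of the type I interferon receptor, ran from 46.2 to 78.5 CPM and from 4 to 19.5 CPM in the pluripotent libraries, and p53KO2nEpiSCs, at 68.8 and 10.9, was close to Epi_male (63.2 and 11.8). Of the 11 receptor and kinase genes, 7 rose and 1 fell in MEF, beside 16.1% and 10% of all genes. Ifnar1, Ifnar2, Ifngr2, Il10rb, Jak1, Jak2 and Stat3 were higher, by 1.31 ± 0.22 (SE, edgeR adjusted p = 0.00259) for Ifnar1 and 4.35 ± 0.73 (0.00257) for Il10rb. Ifnlr1, a chain of the receptor for interferon lambda, fell by 4.43 ± 0.85 (edgeR adjusted p = 0.00469). Ifnar2 and Il10rb also rose in EpiSC over EpiLC, by 1.59 ± 0.36 and 4.09 ± 1.01 (edgeR adjusted p = 0.0248 and 0.0345), and in EpiSC against ESC Tyk2 fell by 1.08 ± 0.32 (0.0432). None of the 11 was called by edgeR between haploid and wild-type EpiSC, where 2 had an unadjusted p under 0.05, against 3.53% of all genes.

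The induction pathway, which senses infection and switches on interferon genes, was matched for 13 of 15 symbols, Cgas and Sting1 being found under the older names Mb21d1 and Tmem173. In MEF 6 of the 13 rose, beside 16.1% of all genes. Among them were Tmem173 (STING, the adaptor of the DNA sensor) by 3.74 ± 0.64 (SE, edgeR adjusted p = 0.00285), Irf2 by 3.64 ± 1.02 (0.0262), Irf8, Irf5, Ticam1 and Ikbke. Ikbke, a kinase that activates IRF3, also rose in EpiSC over ESC (1.82 ± 0.48, edgeR adjusted p = 0.0302) and over EpiLC (2.49 ± 0.51, 0.0169), and Tlr3, the endosomal sensor of double-stranded RNA, rose in EpiSC over ESC (3.31 ± 1.00, 0.0477). Mavs, the adaptor of RIG-I and MDA5, stayed within 24.1 to 35 CPM over the pluripotent libraries. Of 6 brakes on the pathway, in EpiSC against ESC Socs3 fell by 2.92 ± 0.50 (edgeR adjusted p = 0.00489), and Socs1, itself induced by interferon, was at 28.3 CPM in haEpi5_1, 8.49, 9.36 and 6.85 in haEpi1_1, Epi_fema and Epi_male and 4.03 in p53KO2nEpiSCs, with 14.4 and 6.13 in p53KOhaEpiLCs and WT_haEpiLCs.

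Other interferon-induced genes that are not on the list went with it. Of 46 such genes haEpi5_1 was the highest EpiSC library for 40 (22.1% of all genes) and p53KO2nEpiSCs the lowest for 36 (19.3%). For 36 of them p53KOhaEpiLCs was at least 2-fold above WT_haEpiLCs (17.4% of all genes). The list itself had 37, 34 and 37 of its 39 genes. The median log2 difference of haploid from wild-type EpiSC was 1.41 for these 46 genes, with 42 positive and no call. Irgm1, an immunity-related GTPase, was at 198 CPM in haEpi5_1, 182 in p53KOhaEpiLCs, 71.2 in MEF and 1.06 in WT_ESCs. Pml, which organises nuclear bodies, did not follow: it was at 313 CPM in WT_haEpiLCs, above the 185 CPM of p53KOhaEpiLCs. Both genes were picked for the text after their values were seen.

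Some counts on the list cannot be assigned to 1 gene with certainty. Besides Oas1a and Ifit3, at least 10% of the 50-base stretches were shared with another gene for Ifit3b (45.0%), Gbp7 (12.7%), Rtp4 (11.6%), Ifi35 (10.4%) and Ifitm3 (10%). Of the 39 genes, 14 overlap another annotated gene. The neighbours with more than 100 counts in a library were Phrf1 at Irf7, Rnf31 at Irf9, Dtx3l and Parp9 at each other, and Masp1 at Rtp4. Isg15 (chromosome 4, 156199424 to 156200818, minus strand), Stat2 (chromosome 10, 128270559 to 128292849, plus strand), Ifit1 (chromosome 19, 34640871 to 34650009, plus strand) and Bst2 (chromosome 8, 71534255 to 71537456, minus strand) overlap none, in mm10 coordinates of the deposited table.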

How the data were processed

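Poly(A) RNA of the 10 libraries was made into random-primed Illumina libraries, per the labels' protocols. Reads were aligned with HISAT2 2.0.5 to mm10 and counted with featureCounts 1.5.0-p3, per the submitters' processing notes; the strand setting is unstated. The deposited tables hold raw counts per gene and the authors' FPKM, which equalled counts divided by gene length and 1 constant per library, within 1.17% of DESeq2's size factors.

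Levels are CPM, counts scaled by edgeR's TMM library sizes, with exact Poisson 95% intervals, which cover counting error only. Tests were edgeR 4.0.16 quasi-likelihood F tests on the deposited counts (R 4.3.3, filterByExpr, Benjamini-Hochberg adjustment over all genes tested, threshold 0.05). The same tests were run on simulated counts with an equal spread for every gene, which does not measure their power for the listed genes. The haploid against wild-type contrast was fitted over the 5 EpiSC libraries, with a mean for each group; cell types were fitted over all 10 libraries, and p53 label, ploidy and fibroblast level over the 9 pluripotent ones. Alternatives were DESeq2 1.42.0, its size factors, no low-count filter, limma 3.58.1 on log2(FPKM + 1) or log2(FPKM + 0.1), added covariates and leaving out each library. Single libraries were compared by log2 ratios with a prior count of 2.

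The genes, the lists and the tests were chosen with earlier results of these data known. Named in every library are the 2 genes of each role with the highest mean CPM; also named are the exceptions to the low libraries, genes past a threshold and the extremes of a comparison, and other genes were named as examples of their role after their values were seen. Of 211 listed symbols, 209 were found.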

Additional observations from a re-analysis of the deposited data

How the results depend on the processing

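Counts of called genes depended on the tool and the filter. With DESeq2 the list held 1 call for haploid against wild-type EpiSC (0.129% of all genes called), 6 for EpiSC against ESC (19.3%), 3 for EpiLC against ESC (5.4%), 1 for EpiSC against EpiLC (17.6%) and 18 for the fibroblast slope (7.7%), beside 0, 2, 0, 0 and 10 by edgeR. Without the low-count filter the counts were 8, 19, 3 and 2 for the first 4 (0.443%, 12.8%, 1.88% and 8.8% of all genes) and 12 for MEF (15.9%), beside 5. Limma on log2(FPKM + 1) gave 0 for the slope (0.184%), and on log2(FPKM + 0.1) it gave 1 for the slope (0.73%), 1 for EpiLC against ESC (1.35%) and 3 for MEF (30.5%). The cause was not tested. Leaving out 1 library at a time gave 0 to 2 calls for haploid against wild-type EpiSC, 1 to 4 for EpiSC against ESC, 0 to 1 for EpiLC against ESC, 0 to 1 for EpiSC against EpiLC, 3 to 13 for MEF, 5 to 17 for the slope and 0 in each case for the p53 label and ploidy. MEF itself could not be left out. Single called genes lost their call in 2 of 20 such fits for EpiSC against ESC, 8 of 45 for MEF and 22 of 90 for the slope, and none changed direction. Single-library medians and percents of MEF moved little with FPKM scaling. No paired analysis was possible because the labels give no replicate numbers that groups share. Genes at 0 to 3 counts limit the ratios in WT_ESCs, WT_haEpiLCs and p53KO2nEpiSCs.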
